A study of Sus scrofa with 4 samples.

Results

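The enzymes described here run the tricarboxylic acid (TCA) cycle and make or use 2-oxoglutarate, and their transcripts were read in porcine parthenogenetic 4-cell embryos with and without the TET inhibitor Bobcat339. The list holds 36 genes: the cycle without succinate dehydrogenase, the glutamine, glutamate and serine routes to 2-oxoglutarate, the enzyme that removes 2-hydroxyglutarate, and the carriers and malic enzymes that link the cycle to the cytosol. They were picked by gene name from a table of 35248 rows, and earlier results of these data were known when the list was made. The name column gave 33 of them, an Ensembl identifier table gave citrate synthase (CS) and IDH1, and the NCBI gene number in the row's description gave GPT. All 36 passed the filter on low counts, with 26 to 41419 counts per gene and library, so no member was lost before the test.

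Both groups began as oocytes that were electrically activated, with no sperm, held for 3 h in PZM-3 medium with 7.5 µg/mL cytochalasin B, and then grown for 48 h in PZM-3 with bovine serum albumin. The treated group (2 libraries) received 50 µM Bobcat339, a cytosine-like small molecule used against the TET dioxygenases. The control group (2 libraries) received DMSO, whose dose the labels give in the unit of the inhibitor. A parthenogenetic embryo carries only maternal chromosomes. The sources used here do not give how many embryos went into a library. Whether replicates were separate cultures is not stated in the labels. The p-values therefore reflect the spread between these 4 samples alone, and that spread may be technical.

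The TCA cycle condenses acetyl-CoA with oxaloacetate to citrate and oxidises it stepwise in the mitochondrion, passing through isocitrate, 2-oxoglutarate, succinyl-CoA, succinate, fumarate and malate. 2-Oxoglutarate is also made from glutamate, by glutamate dehydrogenase and by aminotransferases, and glutamate in turn comes from glutamine. TET enzymes need 2-oxoglutarate and iron to oxidise 5-methylcytosine, and succinate, fumarate and 2-hydroxyglutarate can compete with 2-oxoglutarate at their active site. RNA libraries measure neither these metabolites nor enzyme activity.

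The libraries held 13568525 to 14681221 counts each. The 10 oocyte and early embryo markers all had counts and summed to 12070 to 13995 CPM (counts scaled to a common library size), led by BMP15 at 4279 CPM. The lowest of them were ZAR1, at only 6 to 18 counts per library, and ZP3, at 303 to 402 counts. Cumulus and granulosa markers, 13 of 14 found, summed to 78.7 to 102 CPM, most of it VCAN (806 to 1146 counts). Of the other 12, STAR had 62 to 126 counts per library, COL1A2 83 to 115, AMHR2 16 to 24, TNFAIP6 4 to 24, CYP19A1 3 to 16 and CYP11A1 8 to 14, PTX3, FOXL2 and NR5A1 ranged from 0 to 13, and FSHR, INHA and LUM had 0 or 1 count. The part of these markers in the results was not tested. A count of 0 allows a level of up to 0.204 to 0.221 CPM, that of 3 counts in these libraries, a limit that covers counting error only. Blood and immune markers, 7 of 8 found, summed to 12.3 to 17.6 CPM. In bulk libraries such as these, fewer cells of a kind and less RNA per cell cannot be told apart. Mitochondrial genome rows took 4.02% to 4.93% of the reads counted after Bobcat339 and 5.59% to 6.36% in the controls.

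The 36 transcripts spanned a wide range of levels, from 0.483 FPKM for GPT to 723 FPKM for malic enzyme 2 (ME2). FPKM (fragments scaled by gene length and library size) is the deposited unit corrected for gene length and is used here wherever levels of different genes are set side by side. The median member stood at 14.3 FPKM and the median of the 18481 genes tested at 3.42 FPKM, and 27 of the 36 members lay above the middle of the tested genes. Together they took 0.583% to 0.669% of the counts of a library. ME2 alone accounted for 0.225% to 0.299% and CS for 0.112% to 0.165%.

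**Figure D1:**
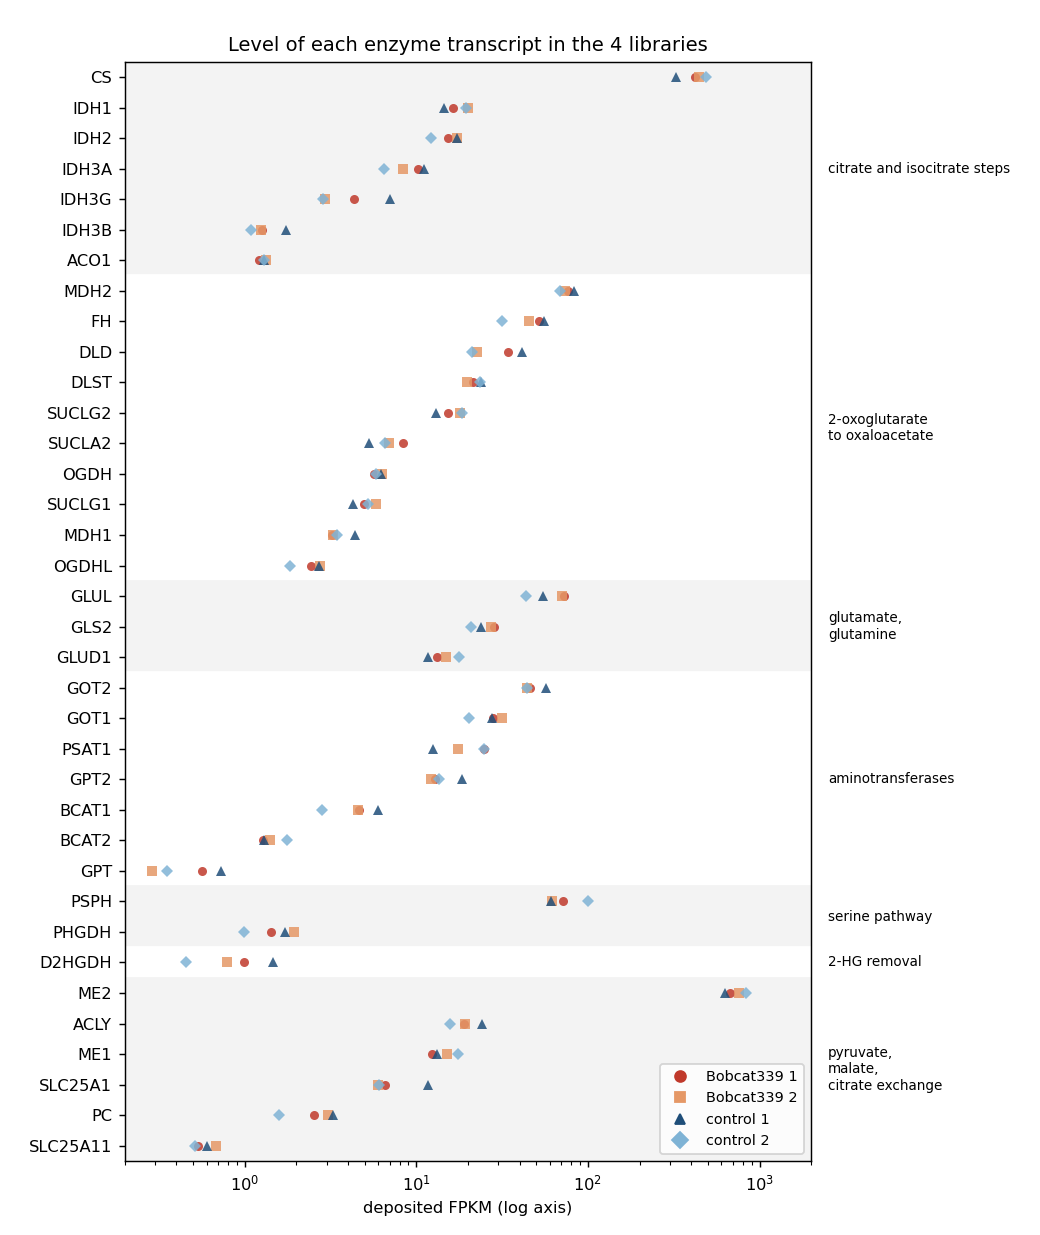
Deposited FPKM (log axis) of each of the 36 transcripts in the 4 libraries, grouped by role and ordered by mean within a role; each point is 1 library. ME2 and CS stand apart above 300 FPKM, while GPT, SLC25A11 and D2HGDH lie near or below 1 FPKM.

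CS, which joins acetyl-CoA and oxaloacetate, was the second most abundant member, at 422 and 446 FPKM in the Bobcat339 libraries and 327 and 485 FPKM in controls 1 and 2. It ranked 79th of the genes tested by mean FPKM. The controls enclosed the treated pair. Cytosolic aconitase ACO1, which becomes the iron sensor IRP1 when it loses its iron-sulfur cluster, was near the low end at 1.20 and 1.33 FPKM with Bobcat339 and 1.30 FPKM in each control.

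Isocitrate is turned into 2-oxoglutarate by IDH1 in the cytosol and by IDH2 and the IDH3 complex in the mitochondrion. IDH1 stood at 16.4 and 20.1 FPKM in the Bobcat339 libraries and 14.4 and 19.4 FPKM in the controls. IDH2 stood at 15.3 and 17.4 FPKM and at 17.3 and 12.1 FPKM. The 2 NADP-dependent enzymes were thus at like levels, and their order differed between the control libraries.

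The 3 subunits of the NAD-dependent IDH3 complex were less abundant and unequal. The catalytic subunit IDH3A read 10.2 and 8.36 FPKM with Bobcat339 and 11.1 and 6.47 FPKM in the controls. The regulatory subunit IDH3G read 4.31, 2.93, 7.02 and 2.86 FPKM in the same order, and IDH3B 1.27, 1.24, 1.73 and 1.09 FPKM. Control 1 was the highest library for all 3 subunits and control 2 the lowest. IDH3A exceeded IDH3B 5.91- to 8.05-fold over the 4 libraries. The IDH3B row (chromosome 17, 32955117 to 32964819, plus strand) covers the NOP56 gene as well and overlaps 6 other rows of the table, so its level carries that limit.

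The 2-oxoglutarate dehydrogenase complex, which makes succinyl-CoA, had its E2 core subunit DLST at 21.4 and 19.7 FPKM with Bobcat339 and 23.7 and 23.4 FPKM in the controls, the treated pair below both. Its E1 subunit OGDH was at 5.68 and 6.27 FPKM against 6.21 and 5.81 FPKM, a tight set of 4 values with DLST 3.14- to 4.02-fold above it. That fold rests on an OGDH length of 5397 bases implied by the deposited FPKM, whereas the deposited gene length is 21625. OGDHL, an E1-like paralog, read 2.42 and 2.74 FPKM against 2.69 and 1.83 FPKM. DLD, the E3 subunit shared with pyruvate dehydrogenase and other complexes, varied most within this complex: 34.3 and 22.5 FPKM with Bobcat339 and 41.1 and 21.1 FPKM in controls 1 and 2.

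Succinyl-CoA synthetase pairs the common subunit SUCLG1 with a partner that fixes its nucleotide, SUCLA2 for ADP or SUCLG2 for GDP. SUCLG2 was the more abundant partner in every library, at 15.3 and 18.0 FPKM with Bobcat339 and 13 and 18.4 FPKM in the controls. SUCLA2 was at 8.37 and 6.94 FPKM against 5.31 and 6.58 FPKM, with both treated libraries above both controls. SUCLG1 read 4.93, 5.84, 4.25 and 5.25 FPKM, and SUCLG2 exceeded it 3.06- to 3.51-fold.

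The last steps were carried by 2 abundant transcripts. Fumarate hydratase (FH), which turns fumarate into malate, stood at 52.1 and 45.2 FPKM in the Bobcat339 libraries and at 55.1 and 31.6 FPKM in the controls, so the controls lay on either side of the treated pair. Mitochondrial malate dehydrogenase MDH2 was steadier, at 76.9 and 73.6 FPKM against 82.9 and 69.0 FPKM. The cytosolic form MDH1 was scarce, at 3.22 and 3.26 FPKM against 4.38 and 3.45 FPKM.

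Among the enzymes of glutamate and glutamine, glutamine synthetase (GLUL) was the most abundant. It read 72.4 and 70.6 FPKM with Bobcat339 and 54.5 and 43.4 FPKM in the controls. The glutaminase GLS2, which works in the opposite direction, read 28.4 and 27.3 FPKM against 23.7 and 20.8 FPKM. In both genes the treated libraries lay above both controls. Glutamate dehydrogenase GLUD1 stood at 13.2 and 15.0 FPKM with Bobcat339, between control 1 (11.6 FPKM) and control 2 (17.8 FPKM).

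The aminotransferases move an amino group between glutamate and another keto acid, releasing or using 2-oxoglutarate. GOT2 and GOT1, the mitochondrial and cytosolic aspartate enzymes of the malate-aspartate shuttle, averaged 48.0 and 26.8 FPKM. GOT2 read 46.2 and 44.0 FPKM with Bobcat339 and 57.3 and 44.4 FPKM in the controls, and GOT1 27.8 and 31.5 FPKM against 27.7 and 20.2 FPKM. Control 1 was the high library for GOT2 and control 2 the low one for GOT1. Phosphoserine aminotransferase PSAT1 averaged 19.9 FPKM, with 24.8 and 17.5 FPKM in the Bobcat339 libraries and 12.6 and 24.9 FPKM in the controls, so each group spanned much of the range of the other. The mitochondrial alanine enzyme GPT2 read 12.8 and 12.2 FPKM with Bobcat339 against 18.6 and 13.5 FPKM, the treated pair below both controls. Of the branched-chain enzymes, BCAT1 read 4.63 and 4.55 FPKM against 5.95 and 2.81 FPKM, and BCAT2 1.27 and 1.40 FPKM against 1.30 and 1.75 FPKM. The cytosolic alanine enzyme GPT was the scarcest member, at 0.565, 0.286, 0.730 and 0.351 FPKM in Bobcat339 1, Bobcat339 2, control 1 and control 2, and its row (chromosome 4, 293708 to 320039, minus strand) also covers MFSD3 and PPP1R16A.

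The serine pathway feeds PSAT1 with its substrate, and its 3 transcripts were uneven. The first enzyme, PHGDH, was at 1.43 and 1.93 FPKM with Bobcat339 and 1.71 and 0.984 FPKM in the controls, on 26 to 50 counts per library. The last, the phosphatase PSPH, was at 71.2 and 61.9 FPKM against 61.0 and 99.9 FPKM. PSPH thus exceeded PHGDH 32.0- to 101-fold. D2HGDH, which oxidises D-2-hydroxyglutarate back to 2-oxoglutarate, read 0.995 and 0.786 FPKM with Bobcat339 and 1.47 and 0.453 FPKM in the controls. Its row (chromosome 15, 140280819 to 140324109, plus strand) also covers GAL3ST2, the gene its deposited description names, so the value cannot be assigned to D2HGDH alone.

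Among the links to the cytosol, ME2, which turns malate into pyruvate in the mitochondrion, was the most abundant member and ranked 40th of all genes tested. It read 676 and 761 FPKM with Bobcat339 and 625 and 831 FPKM in the controls, which enclosed the treated pair as for CS. ATP citrate lyase (ACLY), which splits exported citrate into acetyl-CoA and oxaloacetate, had 18.9 and 19.1 FPKM against 24.2 and 15.8 FPKM. The cytosolic malic enzyme ME1 read 12.3 and 15.1 FPKM against 13.2 and 17.5 FPKM. The citrate carrier SLC25A1 stood at 6.58 and 6.0 FPKM against 11.8 and 6.06 FPKM, with control 1 alone high. Pyruvate carboxylase (PC), which refills oxaloacetate, averaged 2.61 FPKM, and the 2-oxoglutarate carrier SLC25A11 0.584 FPKM.

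Several of these enzymes exist as a cytosolic and a mitochondrial form or as 2 alternative subunits, and 8 such pairs were compared by the ratio of their FPKM within each library. In 3 pairs the mitochondrial form predominated strongly: ME2 over ME1 by 50.0-fold (47.3 to 55.0 over the 4 libraries), MDH2 over MDH1 by 21.3-fold (18.9 to 23.9) and GPT2 over GPT by 31.1-fold (22.6 to 42.6), the last with the limit on the GPT row given above. OGDH stood 2.51-fold above OGDHL (2.29 to 3.18) and SUCLG2 2.39-fold above SUCLA2 (1.83 to 2.80). BCAT1, the cytosolic form, stood 3.05-fold above BCAT2 (1.60 to 4.59), with its highest ratio in control 1 and its lowest in control 2.

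These folds depend on the gene length used. With the length in the deposited table the log2 ratio of OGDH to OGDHL went from 1.33 to 0.27, that of ME1 to ME2 from −5.64 to −4.89, that of MDH1 to MDH2 from −4.41 to −5.09 and that of GPT to GPT2 from −4.96 to −6.16. SUCLA2 to SUCLG2 went from −1.26 to −0.84 and BCAT1 to BCAT2 from 1.61 to 1.40. None of these 6 changed direction.

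For the remaining pairs the direction depended on the library or on the gene length. The log2 ratio of IDH1 to IDH2 averaged 0.18 ± 0.39 (SD over 4 libraries), less than its spread, and it was −0.27 in control 1 and 0.67 in control 2. That of GOT1 to GOT2 averaged −0.85 ± 0.30 but turned to 0.39 when counts were divided by the gene length in the deposited table, and that of IDH1 to IDH2 turned to −0.35. The length implied by the deposited FPKM is shorter than the tabulated one for 27 of the 36 members. The folds of DLST over OGDH, SUCLG2 over SUCLG1, PSPH over PHGDH and IDH3A over IDH3B depend on length too. They were not recomputed with the deposited gene length.

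**Figure D2:**
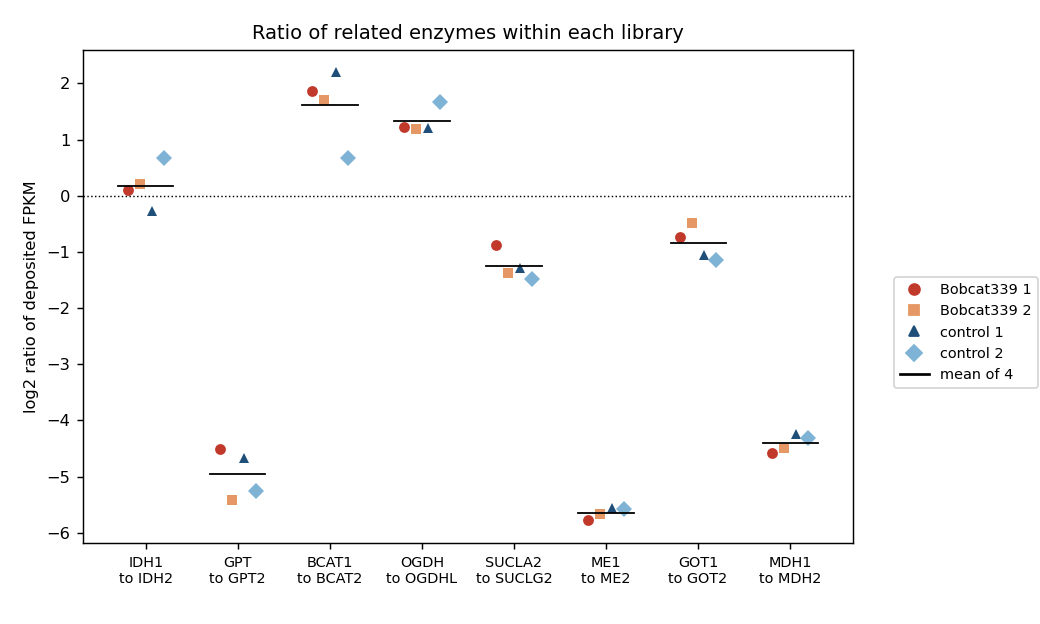
Log2 ratio of deposited FPKM of 2 related enzymes within each library (points) with the mean of the 4 libraries (bar), for 8 pairs; 0 means equal levels. The ratios of ME1 to ME2, GPT to GPT2 and MDH1 to MDH2 lie near or below −4 in every library, and those of BCAT1 to BCAT2 and IDH1 to IDH2 are spread widest between the controls.

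The groups did not overlap in 3 of the 8 ratios (levels of single genes, all genes tested: 29.3%). Ratios of other gene pairs were not counted. The log2 ratio of GOT1 to GOT2 was −0.73 and −0.48 with Bobcat339 and −1.05 and −1.13 in the controls. That of MDH1 to MDH2 was −4.58 and −4.50 against −4.24 and −4.32, and that of ME1 to ME2 −5.78 and −5.66 against −5.56 and −5.57. With 2 libraries against 2 the smallest two-sided p of an exact permutation test is 0.333, so that test cannot pass 0.05 for any ratio, and no other test was run on the ratios.

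No member passed the test between Bobcat339 and control embryos. With edgeR's quasi-likelihood test over 18481 genes, 0 of 36 members had a Benjamini-Hochberg adjusted p under 0.05 (all genes: 0%), each member having an edgeR adjusted p of 0.999. At an unadjusted p under 0.05 there were 0 members (all genes: 4%). limma-voom called 0 members, with 1 at an unadjusted p under 0.05 (all genes: 646 of 18481). DESeq2 called 0 (all genes: 0.0167%), with 0 at an unadjusted p under 0.05 (all genes: 558 of 30007). With the replicate number as a block 0 members passed (all genes: 0.238%). All 36 intervals of 95% included 0, with a median half-width of 0.67 on the log2 scale. The outermost ends were −1.35 for GPT and 1.31 for PHGDH. The members divided evenly: 19 had a log2 fold change below 0 (52.8%; all genes: 52.9%), and the median was −0.04 (all genes: −0.02).

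**Figure D3:**
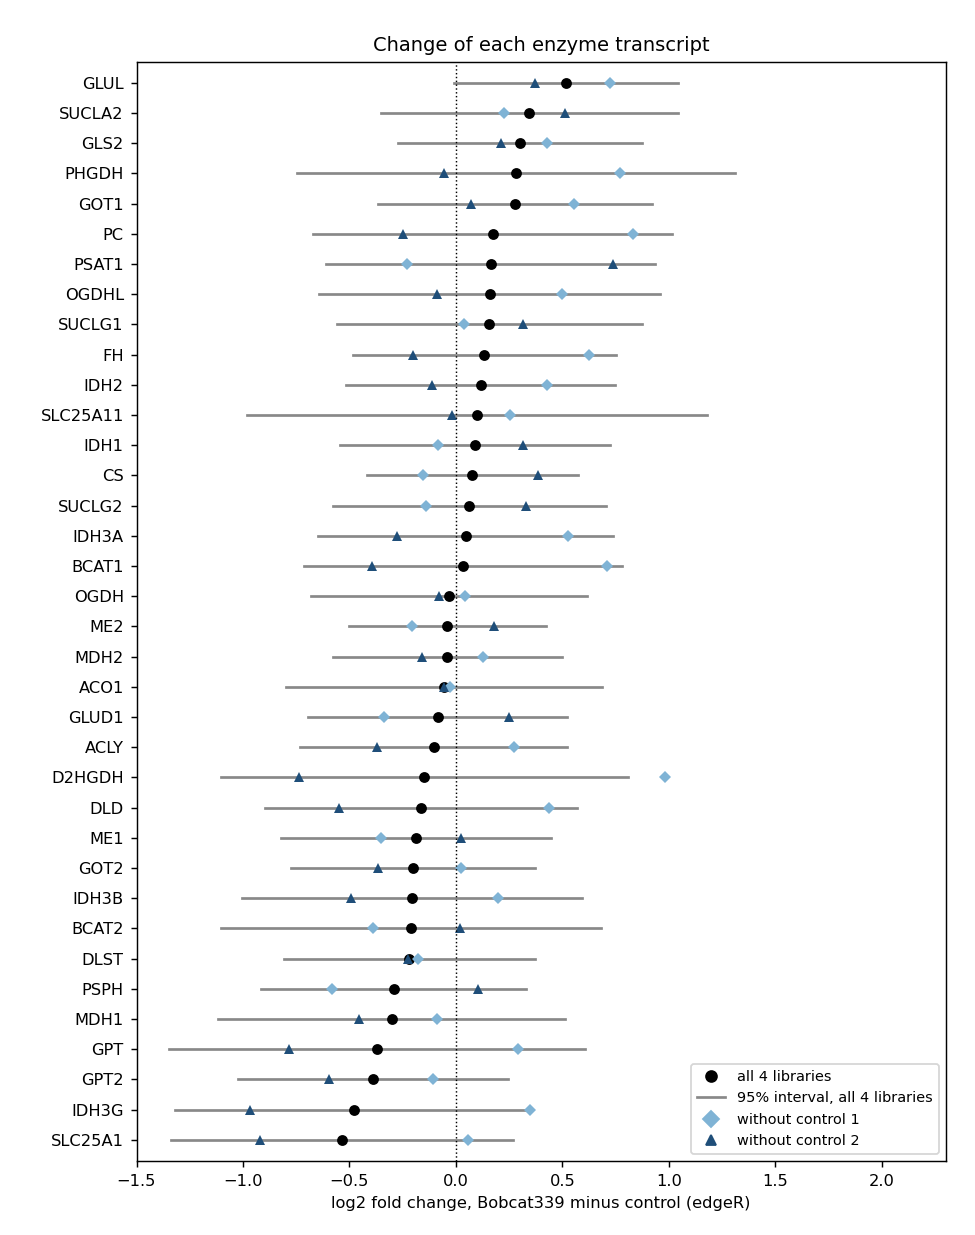
Log2 fold change (Bobcat339 minus control) of the 36 transcripts from edgeR with its 95% interval (black points and grey lines), and the value without control 1 (light diamonds) or without control 2 (dark triangles). All 36 intervals cross 0, and for most members the 2 values with 1 control left out lie on opposite sides of 0.

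GLUL had the smallest p of the list and the highest fold change. Normalised levels with Bobcat339 were 499.7 and 481 CPM, and those of the controls 388 and 297 CPM, which is 490.5 ± 13.1 against 342 ± 64.3 CPM (SD, n = 2 each). The log2 fold change was 0.52 (SE 0.25, 95% interval −0.01 to 1.04), with an unadjusted edgeR p of 0.0529. GLUL (ENSSSCG00000015545, chromosome 9, 123748779 to 123762547, minus strand) passed without control 1, at a log2 fold change of 0.72 and an edgeR adjusted p of 0.00312, where the lone control is taken to have the spread of the treated pair. Without control 2 it was 0.37 and did not pass.

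The next members in the higher direction were GLS2, SUCLA2 and GOT1. GLS2 (chromosome 5, 21804309 to 21819656, minus strand) had 138 and 132 CPM with Bobcat339 against 119 and 100.4 CPM, a log2 fold change of 0.30 (SE 0.27). The gap between the nearest libraries of the groups was smaller than the distance between the controls. SUCLA2 (chromosome 11, 19613682 to 19670861, plus strand) had 21.6 and 17.7 CPM against 14.1 and 16.8 CPM, with a log2 fold change of 0.35 (SE 0.33). Bobcat339 2 was close to control 2. GOT1 (chromosome 14, 110608422 to 110635901, minus strand) had 57.4 and 64.3 CPM against 59.0 and 41.4 CPM, so control 1 lay between the treated libraries, and its log2 fold change of 0.28 (SE 0.31) was 0.07 without control 2.

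In the lower direction the smallest p belonged to SLC25A1, GPT2, IDH3G and PSPH. SLC25A1 (chromosome 14, 50974617 to 50977526, minus strand) had 10.4 and 9.32 CPM with Bobcat339 and 19.1 and 9.45 CPM in the controls. Its log2 fold change of −0.53 (SE 0.38) became 0.06 without control 1, since the other control matched the treated pair. Its row overlaps that of MED15 on the same strand. The rows of GPT2 (with DNAJA2), IDH3G (with SRPK3 and SSR4) and PSPH (with NIPSNAP2) overlap others on the opposite strand. The libraries carry no strand mark, so the same limit applies to them.

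GPT2 had 57.6 and 54.2 CPM with Bobcat339 and 86.2 and 60.1 CPM in the controls. The log2 fold change was −0.39 (SE 0.30), and −0.11 without control 1. The treated libraries were below both controls, but control 2 was nearer to them than to control 1.

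IDH3G (chromosome X, 124528643 to 124538242, minus strand) had 27.9 and 18.7 CPM with Bobcat339 and 46.7 and 18.3 CPM in the controls. Its log2 fold change of −0.48 (SE 0.40) became 0.35 without control 1. Without control 2 it passed, at −0.97 and an edgeR adjusted p of 0.0434, so the 2 controls gave opposite directions.

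PSPH had 108 and 92.9 CPM with Bobcat339 and 95.5 and 150.3 CPM in the controls. Here control 2 was the high library, and the log2 fold change of −0.29 (SE 0.29) became 0.11 without it.

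**Figure D4:**
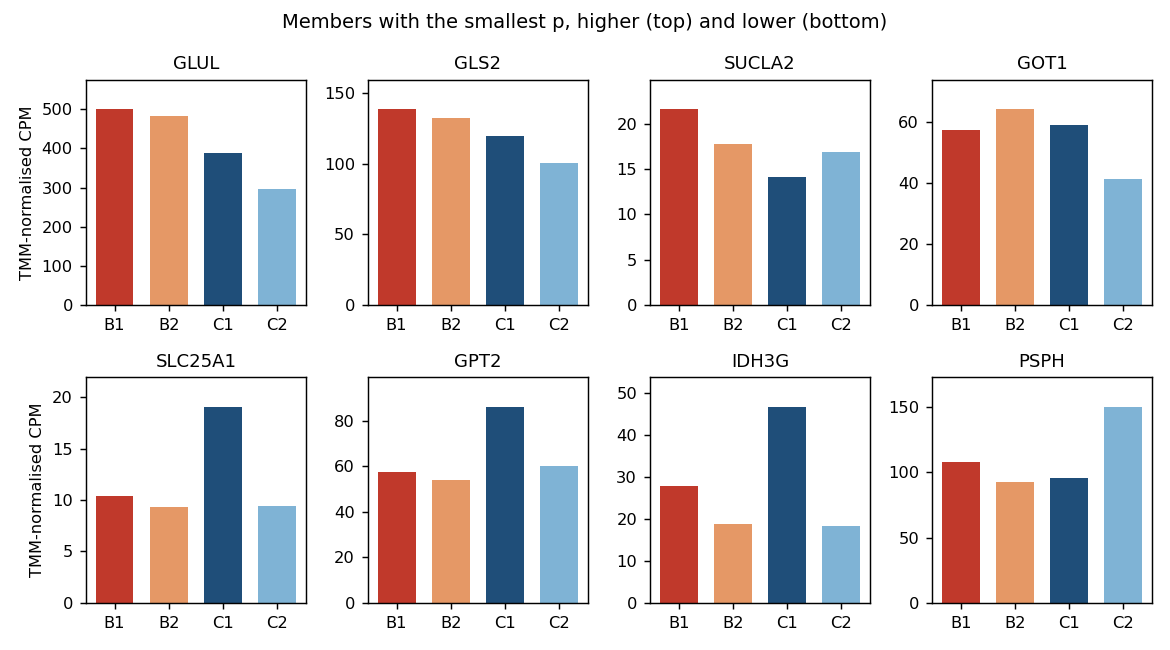
TMM-normalised CPM in Bobcat339 1 and 2 (B1, B2) and control 1 and 2 (C1, C2) of the 4 members with the smallest p in each direction; each bar is 1 library and starts at 0. GLUL, GLS2 and SUCLA2 have both treated libraries above both controls, while SLC25A1 and IDH3G are high in control 1 alone.

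The groups did not overlap in 6 of the 36 members (16.7%; all genes: 29.3%). Both Bobcat339 libraries lay above both controls in 3 members, SUCLA2, GLS2 and GLUL (8.33%; all genes: 13.3%), and below both in 3, DLST, MDH1 and GPT2 (8.33%; all genes: 16%). DLST had 82.3 and 74.7 CPM with Bobcat339 and 93.9 and 88.9 CPM in the controls, a log2 fold change of −0.22 (SE 0.28). MDH1 had 5.31 and 5.32 CPM against 7.45 and 5.66 CPM, a log2 fold change of −0.30 (SE 0.39).

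On these enzymes the 2 controls lay farther from each other than the 2 Bobcat339 libraries did. The median distance between the controls over the members was 0.51 in log2(CPM + 0.5), against 0.16 for the Bobcat339 pair (all genes: 0.46 and 0.25). Control 1 was above control 2 in 25 of the 36 members (69.4%; all genes: 49.8%), with a median difference of 0.38 in log2(CPM + 0.5), against −0.01 over all genes. The controls were farther apart than the Bobcat339 pair in 32 members (88.9%; all genes: 68.1%). They differed by more than 1 on that scale in 6 members, IDH3G, DLD, GPT, BCAT1, D2HGDH and PC (16.7%; all genes: 11.5%), and the Bobcat339 libraries in 0 (all genes: 4.8%). In all 6, control 1 was the higher library.

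The widest gap was in D2HGDH, with 17.6 CPM in control 1 and 5.23 CPM in control 2, a 3.37-fold difference, and 11.6 and 9.03 CPM in the Bobcat339 libraries between them. BCAT1, which starts the breakdown of branched-chain amino acids, had 65.6 and 29.8 CPM in the controls and 49.5 and 48.1 CPM with Bobcat339. PC had 11.9 and 5.51 CPM in the controls and 8.92 and 10.7 CPM with Bobcat339. The treated pair was thus enclosed by the controls in each of these genes.

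That arrangement was common in the list, and 14 members overlapped in another way. Both Bobcat339 libraries lay between a higher control 1 and a lower control 2 in 12 members (33.3%; all genes: 15.6%), among them IDH2, all 3 IDH3 subunits, OGDHL, DLD, FH, MDH2 and ACLY. They lay between a higher control 2 and a lower control 1 in 4 members (11.1%; all genes: 15.1%), CS, SUCLG2, GLUD1 and ME2. Control 1 was the highest of the 4 libraries in 20 of 36 members (all genes: 32.7%) and control 2 the lowest in 17 (all genes: 28.4%).

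Each gene was also centred on its own mean of log2(CPM + 0.5) over the 4 libraries. The members' median was then 0.16 and −0.15 in controls 1 and 2 and −0.03 and 0.03 in the treated libraries 1 and 2, and that of all genes tested was 0.02 in both controls and 0.00 and 0.01 in the treated libraries. Control 1 was above control 2 in the citrate and isocitrate steps (0.21 and −0.26), in the steps from 2-oxoglutarate to oxaloacetate (0.16 and −0.06), in the aminotransferases (0.30 and −0.12) and in the exchange enzymes (0.22 and −0.22). It was also above control 2 for D2HGDH (0.79 and −0.87) and barely so in the serine pathway (0.01 and −0.02). For the median of the 3 glutamate and glutamine enzymes control 1 was again above control 2 (−0.07 and −0.27). There, however, both Bobcat339 libraries lay above both controls, at 0.19 and 0.12. GLUL and GLS2 were low in both controls. GLUD1 was not: it was highest in control 2, at 134 CPM, and lowest in control 1, at 91.3 CPM.

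**Figure D5:**
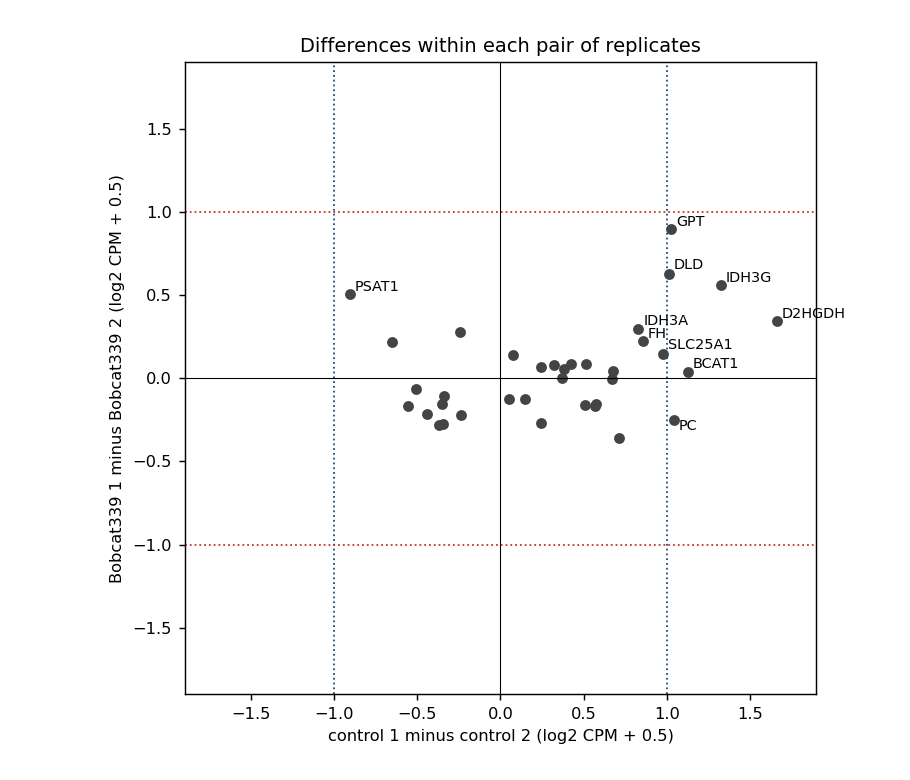
Difference between the 2 controls (horizontal) and between the 2 Bobcat339 libraries (vertical) for each of the 36 transcripts, both in log2(CPM + 0.5); dotted lines mark a difference of 1. The points spread more along the horizontal axis, 6 of them beyond 1, and none passes 1 on the vertical axis.

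Leaving out 1 control changed the direction of many members. Without control 1, 14 members changed sign, and 23 had a log2 fold change above 0 and 13 below (all genes: 50.1% below). The median of the 36 was then 0.16 (all genes: −0.002). Without control 2, 13 members changed sign, 22 were below 0 (all genes: 47.7%) and the median was −0.08 (all genes: 0.03). Without control 1, FH passed together with GLUL (2 of 36 members; all genes: 2.92%), with a log2 fold change of 0.63 and an edgeR adjusted p of 0.0386. With all 4 libraries FH had 265 and 227 CPM with Bobcat339 and 289 and 160 CPM in the controls, and a log2 fold change of 0.13 (SE 0.29). Without control 2, IDH3G alone passed (1 of 36 members; all genes: 2.47%). The direction was the same with each library left out in turn for 8 members: GLUL, GLS2, GOT1, SUCLA2 and SUCLG1 above 0, and DLST, MDH1 and GPT2 below 0. Changes of direction were counted for the members only, so no share over all genes stands beside them.

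Small fold changes were found in 5 of the 7 roles, the serine pathway and D2HGDH having none. The log2 fold change was within 0.10 of 0 for CS (0.08), ACO1 (−0.06), IDH1 (0.09), IDH3A (0.05), OGDH (−0.03), SUCLG2 (0.06), MDH2 (−0.04), GLUD1 (−0.08), BCAT1 (0.03), ME2 (−0.04) and SLC25A11 (0.098), which include the most abundant members. For CS (SE 0.23) and ME2 (SE 0.22), which had the smallest SE, the 95% intervals were −0.42 to 0.57 and −0.50 to 0.42. The least precise were SLC25A11 (SE 0.51), PHGDH (0.28, SE 0.49), GPT (−0.37, SE 0.46) and D2HGDH (−0.15, SE 0.45), all of them scarce.

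Other genes of the same pathways, a further list of 62 of which 59 were found and 55 tested, gave 0 passing genes with edgeR. At an unadjusted p under 0.05 there were 0 in the higher direction (all genes: 1.36%) and 1 in the lower (all genes: 2.64%), PCK1. Of the 55, 36 were below 0 (65.5%; all genes: 52.9%), with a median of −0.07. PCK1, which draws oxaloacetate off to phosphoenolpyruvate, was at 5.72 and 3.57 CPM with Bobcat339 and 27.8 and 7.66 CPM in the controls (log2 fold change −1.93, SE 0.50, edgeR adjusted p = 0.699). The treated libraries lay below both controls in 12 of the 55 (21.8%; all genes: 16%) and above both in 3 (5.45%; all genes: 13.3%).

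Of the 4 subunits of succinate dehydrogenase, the step left out of the main list, 3 lay below both controls (all genes: 16%). These were SDHA, SDHC and SDHD, with an edgeR adjusted p of 0.999 each, and SDHB overlapped. The assembly factors SDHAF1, SDHAF2 and SDHAF3 overlapped too, at log2 fold changes of −0.20, −0.02 and 0.18. The complex was not tested as a set. SDHA, the flavoprotein subunit, had 112 and 93.1 CPM with Bobcat339 and 163 and 130 CPM in the controls, a log2 fold change of −0.52 (SE 0.28, edgeR adjusted p = 0.999).

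The 3 genes with both treated libraries above both controls were SLC1A5, PDHX and PPAT. SLC1A5, a glutamine transporter of the plasma membrane, had 340 and 410 CPM with Bobcat339 and 299 and 217 CPM in the controls, a log2 fold change of 0.54 (SE 0.26, edgeR adjusted p = 0.999), close in size to that of GLUL.

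Positions are given as the table lists them. Each of the 36 members overlaps the gene of its name in the Sscrofa11.1 RefSeq annotation, whereas the submitters' processing notes name Sscrofa10.2. For 17 members the row overlaps another row of the table, and for 5 (IDH3B, GLS2, GPT, D2HGDH and PC) it covers at least 50% of another named RefSeq gene, so reads of such neighbours may be shared or lost depending on counting rules that the sources used here do not give.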

How the data were processed

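Raw counts and FPKM of each gene in the 4 libraries were deposited by the authors, per the file headers. Tools listed in the submitters' processing notes, with no role stated, are DESeq2 1.16.1, HTSeq, HISAT2 2.0.5 and Trimmomatic. The labels name TRIzol extraction and Smart-seq2, which carries no strand mark and no molecular identifiers. Counts were tested with edgeR 4.0.16 in R 4.3.3: filterByExpr (minimum count 10), TMM scaling, glmQLFit, glmQLFTest and Benjamini-Hochberg adjustment over the 18481 rows left, which hold 99.73% of the counts. Printed CPM are TMM-normalised. The SE of a log2 fold change was its size divided by the root of F, and 95% intervals used the test's degrees of freedom. The script was tested on simulated data, with planted changes larger than that of any member and a common spread for all genes. That run therefore does not show the power of the test for these members. FPKM were used only to compare levels between genes and were not tested. Measurement columns of no sample number 0. Replicates differed beyond counting noise, with a chi-square per gene of 11.1 between the treated libraries and 41.4 between the controls (genes with at least 10 counts in the pair), so no pair is 1 set of reads deposited again.

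Alternatives were DESeq2 1.42.0, limma-voom (limma 3.58.1), unscaled libraries, DESeq2 size factors, a minimum of 5 CPM in 2 libraries, all rows with a count, the replicate number as a block, and each library left out. Added after the data were seen were the members of the name column only, the members without rows over another gene, and the deposited gene length for ratios. The members, the further pathway list, the roles and the pairs were chosen with earlier results of these data known. Library values were given for the 4 members with the smallest p in each direction, the 2 most abundant of each role and the pairs reported; other members are shown in addition and were named after their values were seen. Some genes of the further pathway list, and 1 planned pair, are not reported here; the list's counts include them.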

Additional observations from a re-analysis of the deposited data

How the results depend on the processing

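The members called were 0 under both other scalings, both other filters, DESeq2, limma-voom and the replicate block, and 0 to 2 with 1 library left out. The genes called were 5 with DESeq2, 0 to 586 with 1 library left out (586 without control 1, 494 without control 2, 0 without either treated library) and 0 under the other scalings and filters and limma-voom. Where 1 library was left out, the lone sample of its group was assumed to vary like the other group.

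With the replicate number as a block, 44 genes and 0 members passed. Same-numbered libraries correlated by 0.16 in their deviations (across genes, 2 pairs). The labels do not say whether libraries of the same number shared a culture, and this was not tested. The log2 fold change of D2HGDH was 0.056 under the block and 0.092 in limma-voom.

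The members' median log2 fold change ran from −0.084 to 0.16 with 1 library left out. The log2 fold change of 28 members took both signs, with these lowest and highest values: CS −0.16 to 0.38, ACO1 −0.077 to 0.0016, IDH1 −0.085 to 0.31, IDH2 −0.11 to 0.43, IDH3A −0.28 to 0.52, IDH3B −0.49 to 0.20, IDH3G −0.97 to 0.35, OGDH −0.079 to 0.044, OGDHL −0.089 to 0.50, DLD −0.55 to 0.44, SUCLG2 −0.14 to 0.33, FH −0.20 to 0.63, MDH2 −0.16 to 0.13, GLUD1 −0.34 to 0.25, GOT2 −0.37 to 0.025, GPT −0.96 to 0.29, PSAT1 −0.23 to 0.74, BCAT1 −0.40 to 0.71, BCAT2 −0.39 to 0.019, PHGDH −0.056 to 0.77, PSPH −0.58 to 0.11, D2HGDH −0.74 to 0.98, ME1 −0.35 to 0.024, ME2 −0.21 to 0.18, PC −0.25 to 0.83, ACLY −0.37 to 0.27, SLC25A1 −0.92 to 0.059, SLC25A11 −0.024 to 0.26. The cause was not tested.

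The log2 ratios, whose construction depends on the length used, were −0.35 for IDH1 to IDH2, −3.63 for GPT to GPT2, 3.52 for BCAT1 to BCAT2, 2.15 for OGDH to OGDHL, −1.64 for SUCLA2 to SUCLG2, −5.50 for ME1 to ME2, −1.46 for GOT1 to GOT2, −5.51 for MDH1 to MDH2 in CPM, with no length. With the deposited gene length, an alternative chosen after seeing the data, they were −0.35 for IDH1 to IDH2, −6.16 for GPT to GPT2, 1.40 for BCAT1 to BCAT2, 0.27 for OGDH to OGDHL, −0.84 for SUCLA2 to SUCLG2, −4.89 for ME1 to ME2, 0.39 for GOT1 to GOT2, −5.09 for MDH1 to MDH2. The other alternatives chosen after seeing the data, gave a median of −0.04 without the members outside the name column and −0.03 without those whose row covers another gene. Depth limits GPT, PHGDH, BCAT2 and SLC25A11 most, and BCAT2, PHGDH and SLC25A11 were not tested under the 5 CPM filter.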
